A study of Mus musculus with 16 samples.

Results

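The genes described here are *Spink5* and 9 kallikrein-related peptidases of the epidermis, *Klk5*, *Klk6*, *Klk7*, *Klk8*, *Klk9*, *Klk10*, *Klk11*, *Klk13* and *Klk14*. *Spink5* encodes LEKTI, an inhibitor of some of these peptidases. The set was chosen by symbol, as 10 of the 55359 genes in the count tables, and each symbol matched 1 gene identifier. Whole dorsal skin was taken from 16 wild-type mice aged 8 weeks, labelled C57Bl/6 and described in the study's text as C57Bl/6N, and all labelled as in telogen, when hair follicles rest. Of each sex, 4 mice had been irradiated with UVB and 4 had not. UVB had been given 3 times, once per 2 days, and the study collected irradiated skin 6 h after the last exposure, on day 5. Poly(A) RNA was sequenced, and levels are given as CPM, the reads of a gene scaled to a fixed library total with TMM factors, with the 4 values of a group always in the order of mouse 1 to mouse 4. Since whole skin was used, more keratinocytes of a kind and more RNA per keratinocyte cannot be told apart in any value below.

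Kallikrein-related peptidases are secreted serine proteases made as inactive precursors by keratinocytes of the uppermost living layers. After release into the space between the dead cells of the cornified layer, they are activated by other proteases or by each other, and cleave the proteins of corneodesmosomes, the junctions that hold these cells together, so that surface cells can be shed. LEKTI is made in the same layers, is cut into several inhibitory fragments, and restrains KLK5, KLK7 and KLK14. Inherited loss of LEKTI causes Netherton syndrome, with excess protease activity, early loss of cornified cells and inflamed skin.

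The 9 kallikreins lie on the plus strand of chromosome 7 within 160.8 kb, and *Klk12*, which is no member of the set, lies among them. In the GRCm39 build, in order along the chromosome, their identifiers and positions are *Klk14* (ENSMUSG00000044737.7, 43339842 to 43344960), *Klk13* (ENSMUSG00000054046.8, 43361812 to 43377295), *Klk11* (ENSMUSG00000067616.12, 43424015 to 43428690), *Klk10* (ENSMUSG00000030693.11, 43430448 to 43436793), *Klk9* (ENSMUSG00000047884.7, 43441315 to 43446181), *Klk8* (ENSMUSG00000064023.5, 43446969 to 43453250), *Klk7* (ENSMUSG00000030713.7, 43460718 to 43465809), *Klk6* (ENSMUSG00000050063.19, 43473869 to 43481516) and *Klk5* (ENSMUSG00000074155.3, 43491395 to 43500605). *Spink5* (ENSMUSG00000055561.10, 44096302 to 44155568) lies on the plus strand of chromosome 18. The noncoding gene *2310002F09Rik* on the other strand overlaps 6 of the kallikreins, and *Gm44817* and *Gm44814* overlap *Klk14* and *Klk13* on the same strand, where reads shared by both genes would be left out of the counts. Of the reads that fell on the members, 0.289% to 4.24% came from the other strand, and *Klk9* had the highest share.

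The 250 bases before the transcription start are shown for the kallikrein with the largest fold change (*Klk13*), for the one whose response differed between the sexes under every setting tried (*Klk6*) and for the one with the smallest response (*Klk10*), a choice made with their values known. They were read 5′ to 3′ on the plus strand of GRCm39, up to the base before the start of the canonical transcript in GENCODE M39, and capitals mark the letters of a motif match.

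Klk13 (chr7:43361562-43361811): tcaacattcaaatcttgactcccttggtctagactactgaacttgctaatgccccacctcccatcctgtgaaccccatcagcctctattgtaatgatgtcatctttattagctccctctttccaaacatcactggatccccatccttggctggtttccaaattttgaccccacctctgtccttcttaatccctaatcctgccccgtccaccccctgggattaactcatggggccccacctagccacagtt

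Klk6 (chr7:43473624-43473873): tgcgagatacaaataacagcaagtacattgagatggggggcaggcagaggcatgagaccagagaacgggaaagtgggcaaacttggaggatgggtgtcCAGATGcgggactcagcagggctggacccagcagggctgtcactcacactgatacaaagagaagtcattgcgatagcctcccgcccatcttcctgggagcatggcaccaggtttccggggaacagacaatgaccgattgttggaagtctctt

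Klk10 (chr7:43430209-43430458): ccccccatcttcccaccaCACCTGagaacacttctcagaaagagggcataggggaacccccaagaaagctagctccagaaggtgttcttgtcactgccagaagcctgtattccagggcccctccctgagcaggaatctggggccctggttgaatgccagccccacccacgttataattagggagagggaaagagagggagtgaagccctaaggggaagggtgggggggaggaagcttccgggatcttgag

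The letters of 6 motifs were searched on both strands of these windows for all 10 members and for 21770 protein-coding genes. TGANTCA of AP-1 was in 0 of the 10 windows and in 6.17% of all windows. The NF-kB motif was in 0 and in 0.423%. AACNGGTT of the GRHL factors was in that of *Spink5* and in 1.79% of all windows, and TTGCNNAA of C/EBP was in that of *Klk11* and in 9.34%. TATAAA was in that of *Spink5* and in 11.9%, and the E-box CANNTG was in 7 members' windows and in 64.8% of all windows. The E-box letters in the window of *Spink5* overlapped its GRHL letters. The single capital stretches shown for *Klk6* and *Klk10* are E-boxes, and the window of *Klk13* held none of the 6 motifs. The windows of *Klk5* and *Klk11* lie inside the annotated gene, downstream of the start of another transcript. A match describes letters in a window and is not evidence of binding.

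Reads on genes numbered 16495776 to 33404831 per mouse. Marker genes of both keratinocyte compartments were present in every mouse, and the summed level of 9 spinous and granular markers was 7052 to 10369 CPM in no-UVB males, 18194 to 25901 CPM in UVB males, 6618 to 9666 CPM in no-UVB females and 10539 to 14614 CPM in UVB females. The summed level of 6 fibroblast markers was 79065 to 86268 CPM in no-UVB males and 28385 to 39292 CPM in UVB males, against 19205 to 20539 CPM in no-UVB females and 12113 to 21853 CPM in UVB females. Collagen genes carried the fibroblast sum: in males *Col1a1*, *Col1a2* and *Col3a1* changed 0.316-, 0.336- and 0.513-fold. The ratio was 0.824 for *Dcn*, 0.879 for *Pdgfra* and 0.904 for *Lum*, the last not past the threshold. In females *Lum* was 1.35-fold and *Pdgfra* 0.776-fold, both past the threshold. *Col1a1* (0.746), *Col1a2* (0.782), *Col3a1* (0.876) and *Dcn* (1.01) did not pass it in females. In males the sums of skeletal muscle (0.601-fold), hair follicle bulge (0.673), macrophage (0.825), T cell (0.859) and neutrophil markers (1.93) did not overlap between UVB and no UVB either. In females these ratios were 1.01, 0.835, 0.810, 0.810 and 1.36, and the bulge sum alone of these 5 did not overlap. Of the neutrophil markers, *Cxcr2* was 12.4-fold and *Retnlg* 0.699-fold in males, the latter not past the threshold, and *Ly6g* and *Ngp* were under 1 CPM in every mouse. The sum of 6 growing hair shaft markers, which bears on the labelled telogen, was 12.8 to 127 CPM in no-UVB males, 13.0 to 17.8 CPM in UVB males, 12.7 to 23.6 CPM in no-UVB females and 9.01 to 17.1 CPM in UVB females, with no-UVB males 3 and 4 above all other mice and the other no-UVB males within the range of the other groups. The part of these sums in the responses below was not tested. No-UVB female 4 had the lowest level of its group for all 10 members, and its summed spinous and granular markers (6618 CPM) and basal markers (5005 CPM) were the lowest of its group as well. UVB male 4 was the lowest of its group for 8 members, and UVB male 2 was the highest for 7.

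Without UVB, *Spink5* and *Klk7* were the most abundant of the 10 transcripts per length in both sexes. Levels per kilobase of exon, used here to compare genes, averaged 149 CPM per kb for *Spink5* and 148 for *Klk7* in no-UVB males. They averaged 161 and 161 in no-UVB females, and the ranges of the 2 genes overlapped in each sex. Exon length joined the exons of all annotated transcripts of a gene, for example 1339 bases for *Klk5* and 3695 for *Klk10*. The order of genes, and the ratios and shares given below, depend on this choice. *Klk5* (47.7 and 40.1 CPM per kb in males and females) and *Klk10* (37.2 and 46.1) came next and overlapped each other. *Klk6*, *Klk8*, *Klk9* and *Klk11* formed a lower tier between 9.9 and 21.3 CPM per kb. *Klk13* and *Klk14* were at the bottom, with means of 0.246 to 0.375 CPM per kb in these 4 combinations of gene and sex, and their ranges lay below those of the other 8 members. After UVB this order changed in males: *Klk7* stood alone at the top (500.2 CPM per kb), above the range of *Spink5* (211), *Klk6* (156) overlapped *Spink5*, and *Klk10* (54.3) moved from the fourth place to the seventh. In UVB females *Klk7* (357 CPM per kb) also lay above *Spink5* (193), and *Klk5* (95.5) followed, below the range of *Spink5*.

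UVB raised most of the epidermal kallikreins in both sexes, *Klk13* by the largest factor, while *Klk10* and *Spink5* changed least. Genes were called with edgeR's quasi-likelihood test within each sex, where the p-value after Benjamini-Hochberg adjustment was under 0.1 and the log2 fold change past 1. In males all 10 members were tested, and 8 rose by this rule, against 4.08% of the 16535 genes tested. By the adjusted p alone all 10 rose, against 29.0% of genes, and for all 10 every UVB male lay above every no-UVB male, against 22.9% of genes. *Klk14* passed the filter on low counts in males only through the UVB mice, so its place in these counts was set by the filter, and of the other 9 members 7 rose by adjusted p and fold and 9 by adjusted p. In females 9 members were tested, *Klk14* being too low, and 7 rose by adjusted p and fold, against 1.63% of the 16883 genes tested. The same 7 were past the adjusted p alone (12.8% of genes) and did not overlap between the groups (11.1% of genes). *Klk13* passed the filter in females only with the UVB mice, and of the other 8 members 6 rose. The median log2 fold change of the tested members was 2.16 in males and 1.26 in females, and 1.78 and 1.24 without *Klk14* and *Klk13* respectively, where that of all genes tested was -0.02 and 0.0025.

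**Figure D1:**
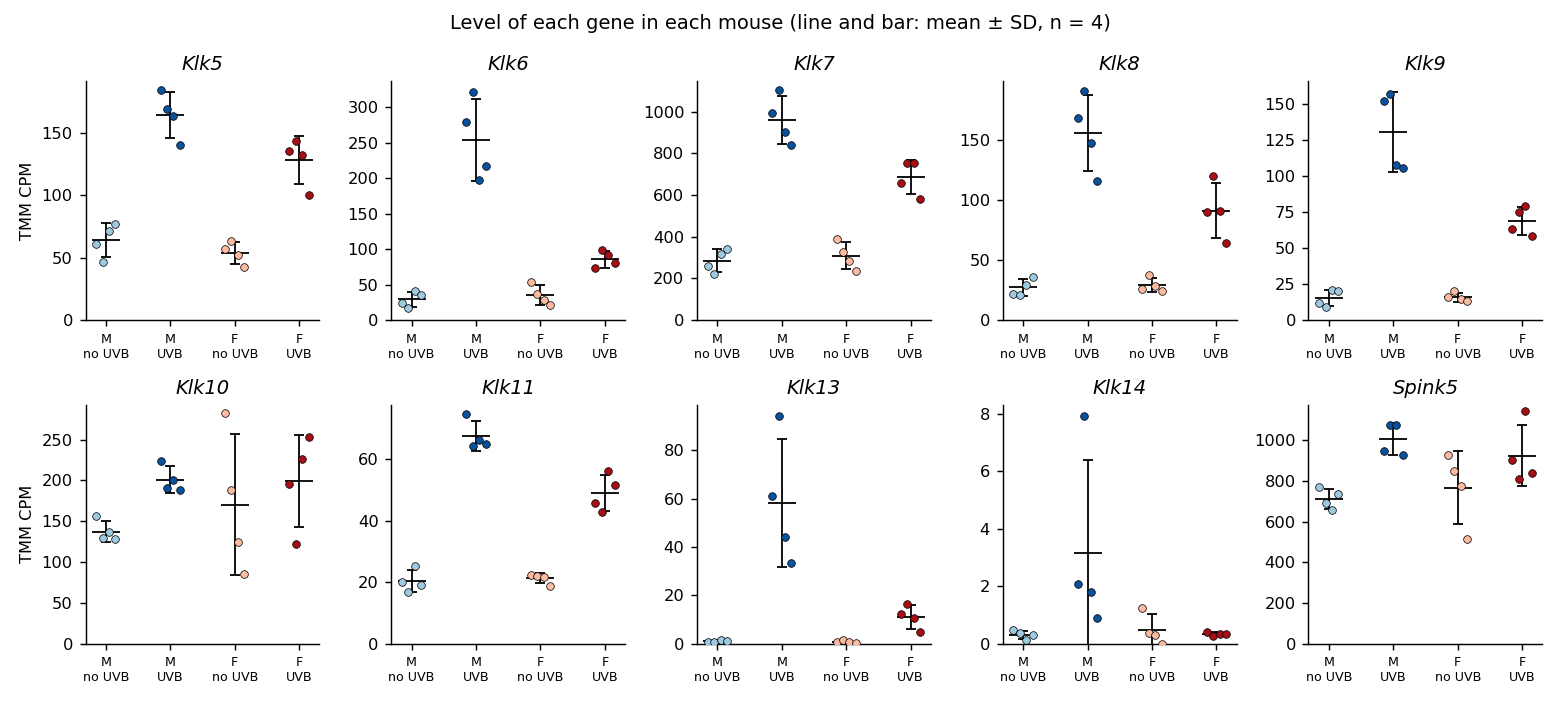
TMM-scaled CPM of each of the 10 genes in each of the 16 mice, on linear axes that start at 0 and differ between panels. Points are mice, lines and bars the mean ± SD of 4 mice, and bars that would pass below 0 are cut there. UVB mice lie above no-UVB mice of the same sex without overlap for all genes except *Klk10*, *Klk14* and *Spink5* in females.

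*Klk5* and *Klk7* encode the trypsin-like and the chymotrypsin-like enzyme best known for cleaving corneodesmosomes, and KLK5 can activate KLK7. *Klk5* was at 60.8, 46.3, 71.5 and 76.8 CPM in no-UVB males and at 184, 169, 164 and 139.9 CPM in UVB males. In females *Klk5* was at 56.8, 63.5, 52.1 and 42.5 CPM without UVB and at 136, 144, 132 and 99.97 CPM after UVB. The UVB mice of each sex lay above all no-UVB mice of that sex. For *Klk5* the log2 fold change was 1.39 (SE 0.151, adjusted p = 7.38e-05) in males and 1.26 (SE 0.14, adjusted p = 4.43e-04) in females. *Klk7* was at 258, 223, 317 and 342 CPM in no-UVB males and at 995, 1103, 903 and 842 CPM in UVB males. In females *Klk7* was at 389, 327, 283 and 236 CPM without UVB and at 658, 753, 753 and 581 CPM after UVB. Again no values overlapped between UVB and no-UVB mice of a sex, and the lowest UVB male stood above every UVB female. For *Klk7* the log2 fold change was 1.78 (SE 0.138, adjusted p = 4.24e-06) in males and 1.16 (SE 0.156, adjusted p = 0.00108) in females.

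*Klk14* encodes a trypsin-like protease that can activate other kallikreins and is likewise inhibited by LEKTI. *Klk14* was at 0.466, 0.368, 0.13 and 0.287 CPM in no-UVB males and at 2.09, 7.91, 1.8 and 0.886 CPM in UVB males. In females *Klk14* was at 1.26, 0.357, 0.295 and 0 CPM without UVB and at 0.412, 0.252, 0.343 and 0.325 CPM after UVB. It was low outside the UVB males, with 0 to 29 reads per no-UVB female, 3 to 10 reads per no-UVB male and 7 to 8 reads per UVB female. UVB males had 17 to 124 reads, and UVB male 2 stood far above the other 3. The log2 fold change in males was 3.29 (SE 0.797, adjusted p = 0.00804), and it ranged from 2.38, without UVB male 2, to 3.61 on leaving out each male in turn and under the other settings that kept the gene. Since only the UVB males carried it past the filter on low counts, this test is no support for the change, and a filter of 10 counts in each mouse left it untested. In females no test was made, and the UVB values lay inside the range of the no-UVB values.

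*Klk8* encodes neuropsin and *Klk6* a trypsin-like protease first studied in the nervous system, and both are found in the upper epidermis. *Klk8* was at 21.6, 21.3, 29.5 and 36.1 CPM in no-UVB males and at 169, 191, 148 and 116 CPM in UVB males. In females *Klk8* was at 25.6, 37.2, 28.3 and 24.2 CPM without UVB and at 89.7, 120.1, 91 and 64.1 CPM after UVB. The groups of each sex were apart. For *Klk8* the log2 fold change was 2.55 (SE 0.215, adjusted p = 3.34e-05) in males and 1.67 (SE 0.194, adjusted p = 6.67e-04) in females. *Klk6* was at 23.3, 17.5, 41.2 and 35.4 CPM in no-UVB males and at 279, 322, 197 and 217 CPM in UVB males. In females *Klk6* was at 53.4, 36.5, 28.1 and 20.6 CPM without UVB and at 72.8, 99.1, 91.2 and 79.7 CPM after UVB. The lowest UVB male stood well above the highest UVB female, while the ranges of the no-UVB mice of both sexes overlapped. For *Klk6* the log2 fold change was 3.13 (SE 0.302, adjusted p = 1.14e-04) in males and 1.32 (SE 0.247, adjusted p = 0.00732) in females.

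*Klk13* encodes a protease of stratified epithelia and showed the steepest response of the set. *Klk13* was at 0.839, 0.875, 1.47 and 1.03 CPM in no-UVB males and at 61, 94.1, 44.2 and 33.4 CPM in UVB males. In females *Klk13* was at 0.909, 1.51, 0.819 and 0.404 CPM without UVB and at 12.4, 16.3, 10.8 and 4.74 CPM after UVB. It went from at most 38 reads per no-UVB mouse to 640 to 1959 reads per UVB male and 102 to 451 reads per UVB female. For *Klk13* the log2 fold change was 5.79 (SE 0.445, adjusted p = 3.47e-05) in males and 3.59 (SE 0.427, adjusted p = 7.20e-04) in females. The female test is no support for the change, since *Klk13* passed the filter in females only with the UVB mice. *Klk9*, one of the less studied kallikreins, also rose in both sexes. *Klk9* was at 11.7, 9.12, 20.7 and 19.8 CPM in no-UVB males and at 152, 157, 107 and 105 CPM in UVB males. In females *Klk9* was at 15.7, 20.3, 14.2 and 12.9 CPM without UVB and at 63.3, 74.6, 78.9 and 58 CPM after UVB. All UVB mice stood above all no-UVB mice, and the UVB males above the UVB females. For *Klk9* the log2 fold change was 3.11 (SE 0.294, adjusted p = 9.54e-05) in males and 2.13 (SE 0.149, adjusted p = 8.97e-05) in females.

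*Klk11* encodes a trypsin-like protease of stratified epithelia. *Klk11* was at 20.2, 16.8, 25.3 and 19.2 CPM in no-UVB males and at 74.8, 64.4, 66.2 and 64.9 CPM in UVB males. In females *Klk11* was at 22.3, 22, 21.7 and 18.9 CPM without UVB and at 45.6, 42.8, 56.2 and 51.4 CPM after UVB. The ranges of the no-UVB mice of both sexes overlapped, and each UVB group stood apart, with the males above the females. For *Klk11* the log2 fold change was 1.75 (SE 0.111, adjusted p = 1.44e-06) in males and 1.21 (SE 0.0972, adjusted p = 1.06e-04) in females. *Klk10*, whose product was first described as a protein lost in breast tumour cells, responded least among the kallikreins. *Klk10* was at 157, 129, 136 and 128 CPM in no-UVB males and at 224, 190.2, 200.3 and 188 CPM in UVB males. In females *Klk10* was at 283, 189, 125 and 85.4 CPM without UVB and at 195, 123, 226 and 253 CPM after UVB. Males were apart by a narrow margin, and in females the groups overlapped over most of their range, with the highest level of all in no-UVB female 1. For *Klk10* the log2 fold change was 0.57 (SE 0.0808, adjusted p = 1.57e-04) in males and 0.23 (SE 0.341, adjusted p = 0.692) in females. The male value kept its size but missed the threshold when all 16 mice shared a single fit (log2 fold change 0.55, adjusted p = 0.129).

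*Spink5*, the gene of the inhibitor, rose slightly in males. *Spink5* was at 769, 694, 656 and 735 CPM in no-UVB males and at 949, 1077, 1077 and 929 CPM in UVB males. In females *Spink5* was at 931, 851, 778 and 514 CPM without UVB and at 906, 808, 1144 and 842 CPM after UVB. The UVB males lay above the no-UVB males without reaching the threshold on fold, and in females the groups overlapped. For *Spink5* the log2 fold change was 0.52 (SE 0.0843, adjusted p = 3.92e-04) in males and 0.28 (SE 0.183, adjusted p = 0.341) in females.

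Whether the response differed between the sexes was tested as the interaction of UVB and sex over all 16 mice, with an adjusted p under 0.1. The response was larger in males for *Klk6*, *Klk11* and *Klk14*, that is for 3 of the 10 members against 2.75% of the 17406 genes tested. *Klk14* entered this fit only through the UVB males, and of the other 9 members 2 were called. For *Klk6* the difference in log2 fold change was 1.80 (SE 0.403, adjusted p = 0.0343), and it stayed past the threshold under all 25 other settings, with 1.52 to 2.02 and adjusted p of 0.00227 to 0.0847. For *Klk11* it was 0.52 (SE 0.155, adjusted p = 0.074). This call was lost on leaving out any of 11 of the 16 mice, namely UVB females 1 and 2, no-UVB females 1, 2 and 3, UVB males 1, 2 and 3, and no-UVB males 1, 2 and 4, with adjusted p of 0.101 to 0.158 and log2 differences of 0.44 to 0.54. For *Klk14* it was 3.82 (SE 1.17, adjusted p = 0.0884), lost on leaving out any of 12 mice, namely UVB females 1, 2 and 4, no-UVB females 1, 2 and 3, UVB males 1 and 2, and any no-UVB male, with adjusted p of 0.106 to 0.213 and log2 differences of 2.80, without no-UVB female 1, to 4.09, with 2.89 without UVB male 2, and lost as well when every gene with a count was tested (adjusted p = 0.228).

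The fitted interaction was positive for the other 7 members as well, without passing the threshold. It was 2.19 for *Klk13* (SE 0.714, adjusted p = 0.105), 0.97 for *Klk9* (SE 0.326, adjusted p = 0.114), 0.86 for *Klk8* (SE 0.302, adjusted p = 0.124) and 0.60 for *Klk7* (SE 0.218, adjusted p = 0.133). These 4 passed it with DESeq2's Wald test, with adjusted p of 0.0147, 0.0305, 0.0377 and 0.0534, and *Klk13* and *Klk9* passed it with counts without regard to strand as well (0.0901 and 0.0993). *Klk13* also passed it with the replicate number as a block within each sex (2.11, adjusted p = 0.0421) or over both sexes (2.16, 0.0200) and with DESeq2 size factors (0.0990), and *Klk9* with a filter of 10 counts in each mouse (0.0966). They also passed with some mice left out: *Klk13* without UVB female 2 or 4, no-UVB female 4, UVB male 4 or no-UVB male 3 (adjusted p 0.0692 to 0.0987), *Klk9* without UVB female 3, no-UVB female 4, or no-UVB male 3 or 4 (0.0597 to 0.0980). *Klk8* did so without UVB female 2, UVB male 4 or no-UVB male 4 (adjusted p 0.0872 to 0.0920), and *Klk7* without no-UVB female 4 (0.0574). *Klk10* (0.32, SE 0.404), *Spink5* (0.23, SE 0.21) and *Klk5* (0.11, SE 0.218) stayed short of the threshold under every setting, with adjusted p of 0.688, 0.567 and 0.804.

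**Figure D2:**
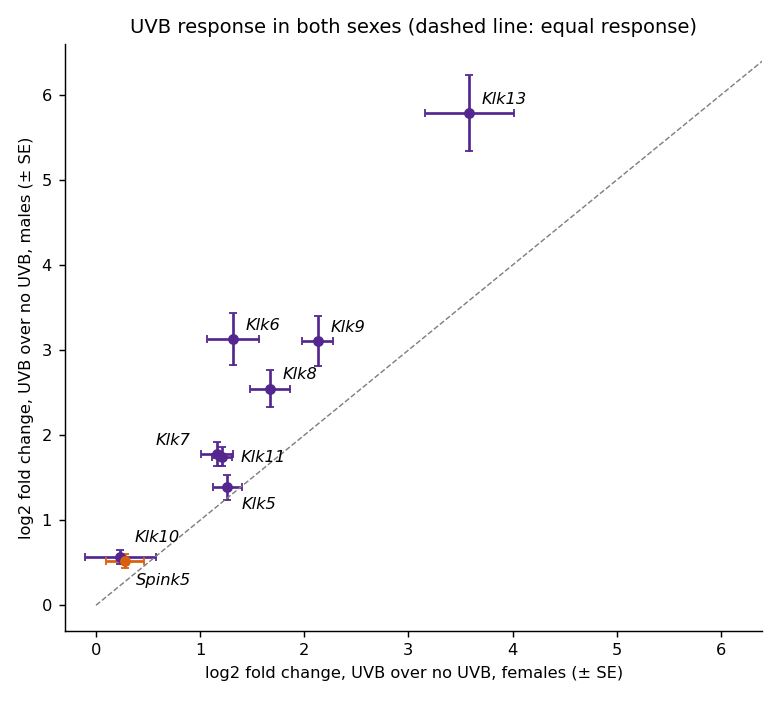
Log2 fold change of UVB over no UVB in males (vertical axis) against that in females (horizontal axis) for the 9 members tested in both sexes, with bars of ± SE from the fits of 8 mice per sex. Purple points are kallikreins, the orange point is *Spink5*, and all 9 lie above the dashed line of equal response, *Klk6* and *Klk13* farthest.

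Between the sexes directly, no member passed the threshold without UVB with edgeR, where the log2 differences of males from females ranged from -0.61 to 0.25 with adjusted p of 0.387 to 0.947. The number at an unadjusted p under 0.05 was 0 as well, and so was that of DESeq2, while 7.21% of all genes were called higher and 4.58% lower in males. After UVB, 7 of the 10 were higher in males, against 12.8% of genes, and for 6 of these every UVB male lay above every UVB female, against 11.5%. Without *Klk14*, which entered the fit through the UVB males, 6 of the other 9 were called and 5 did not overlap. In log2 terms UVB males exceeded UVB females by 3.21 for *Klk14* (adjusted p = 0.01), 2.39 for *Klk13* (8.65e-04), 1.56 for *Klk6* (0.00303), 0.92 for *Klk9* (0.0122), 0.77 for *Klk8* (0.0212), 0.49 for *Klk7* (0.0393) and 0.46 for *Klk11* (0.00862). For *Klk14* the difference was 2.28 (adjusted p = 0.0324) without UVB male 2, whose level stood far above the other UVB males, and since the UVB males carried the gene into the fit, its test is no support for the difference. Only *Klk8* of these overlapped, with UVB male 4 at 116 CPM below UVB female 2 at 120.1 CPM. The call of *Klk7* was lost without UVB female 1, UVB female 4 or UVB male 2, with log2 differences of 0.41 to 0.46 and adjusted p of 0.110 to 0.116, and when every gene with a count was tested (adjusted p = 0.108). *Klk5*, *Klk10* and *Spink5* differed by 0.01 to 0.36 with adjusted p of 0.117 to 0.980.

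The unequal responses shifted the ratio of kallikrein to *Spink5* transcript. The summed level per kilobase of the 9 kallikreins, divided by that of *Spink5*, was 1.67, 1.55, 2.38 and 2.2 in the no-UVB males and 5.82, 5.52, 4.36 and 4.71 in the UVB males. It was 2.02, 1.91, 1.7 and 2.08 in the no-UVB females and 3.53, 4.42, 3.14 and 3.41 in the UVB females. The mean went from 1.95 ± 0.402 to 5.11 ± 0.683 in males and from 1.93 ± 0.169 to 3.62 ± 0.554 in females (SD, n = 4), without overlap in either sex. Since these ratios join genes chosen with their responses known, they are a description with no test. They concern transcripts, and neither the active enzymes nor the inhibitor protein was measured.

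**Figure D3:**
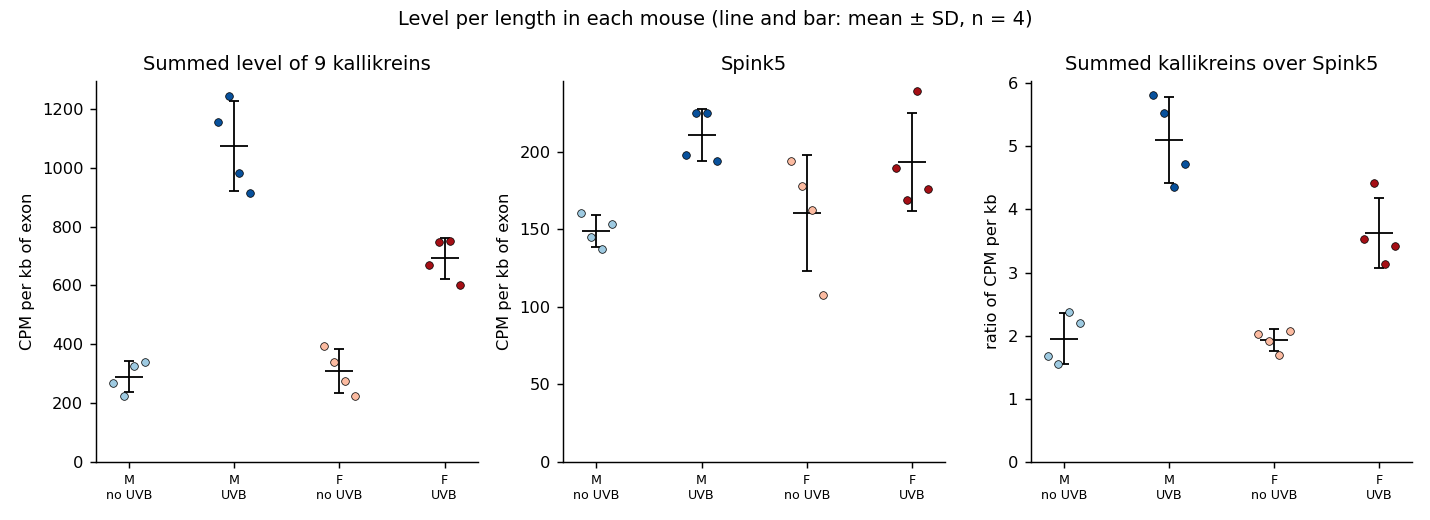
Summed level of the 9 kallikreins, level of *Spink5* (both in CPM per kb of exon) and their ratio in each of the 16 mice, with the mean ± SD of 4 mice. The ratio is 1.55 to 2.38 in the no-UVB mice of both sexes, 3.14 to 4.42 in UVB females and 4.36 to 5.82 in UVB males.

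The makeup of the kallikrein pool changed with UVB too. *Klk7* made up the largest share of the summed kallikrein level per kilobase throughout, with 51.2% in no-UVB and 46.7% in UVB males, and 52.4% and 51.6% in females. *Klk6* went from 6.08% to 14.4% in males, with no overlap, and from 6.7% to 7.61% in females, where the groups overlapped. *Klk9* went from 3.5% to 8.16% in males and from 3.54% to 6.72% in females, apart in both. *Klk8* went from 5.93% to 9.18% in males, with no overlap, and from 6.13% to 8.32% in females, with overlap. *Klk10* went the other way, from 13.2% to 5.12% in males and from 14.3% to 7.97% in females, with overlap in females. *Klk5* went from 16.4% to 11.5% in males, with no overlap, and from 13.3% to 13.8% in females, with overlap. *Klk13*, despite its fold change, reached 1.63% in UVB males and 0.487% in UVB females.

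Along the chromosome, genes with large and small log2 fold changes lay side by side. *Klk10* (log2 fold change 0.57 in males) lies between *Klk11* (1.75), whose end is 1.76 kb before it, and *Klk9* (3.11), whose start is 4.52 kb after it. *Klk9* and *Klk8*, only 0.787 kb apart, had 3.11 and 2.55 in males and 2.13 and 1.67 in females. *Klk12*, a gene of the same cluster that was not in the set, lies 1.005 kb before *Klk11* and was low, with 1.78 ± 0.272 CPM in no-UVB males, 5.61 ± 1.63 in UVB males, 2.12 ± 1.37 in no-UVB females and 2.46 ± 0.262 in UVB females (SD, n = 4). It rose in males (log2 fold change 1.68, SE 0.22, adjusted p = 9.13e-05) and not detectably in females (0.22, SE 0.374, adjusted p = 0.737). Its interaction with sex was 1.45 (adjusted p = 0.097), a call lost on leaving out any of 12 mice, namely UVB females 1, 2 and 4, no-UVB females 1, 2 and 3, UVB males 1 and 2, and any no-UVB male, with 0.95 to 1.61 and adjusted p of 0.101 to 0.193. It was also lost with upper quartile scaling, when every gene with a count was tested and with the replicate block within each sex or over both (adjusted p = 0.1004, 0.2003, 0.162 and 0.113).

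**Figure D4:**
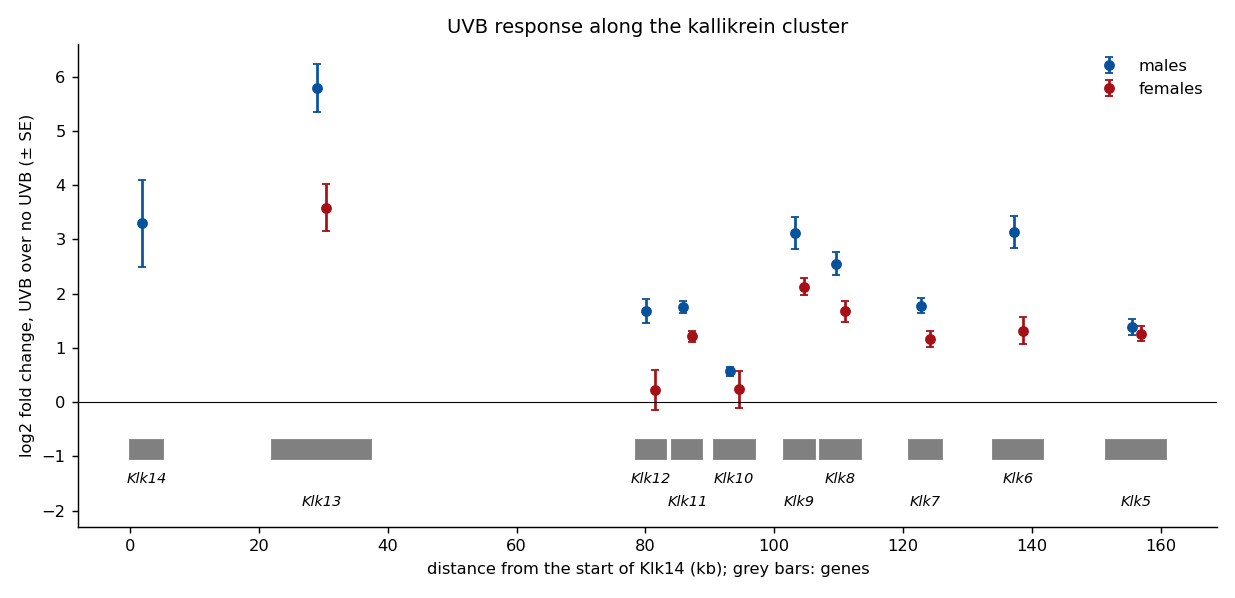
Log2 fold change of UVB over no UVB (± SE) for the 9 kallikreins of the set and *Klk12* by distance from the start of *Klk14* in kb, males in blue and females in red, with the genes as grey bars to scale. *Klk13* has the highest value in both sexes, and in females *Klk10* (0.23) and *Klk12* (0.22) lie nearest 0, between neighbours with larger values, while *Klk10* in males is at 0.57. *Klk14* has no female value because it was too low to test.

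Because the kallikreins are made in the granular layer, and the summed markers of that layer moved with UVB, each member's level was also set against the summed spinous and granular markers of the same mouse, an alternative chosen after the data had been seen. These 9 markers (*Krt1*, *Krt10*, *Krt2*, loricrin, *Flg*, *Flg2*, *Ivl*, *Casp14* and *Tgm3*) had a summed level 2.57-fold higher in UVB than in no-UVB males and 1.59-fold higher in females. They did not move together, since *Flg2* (0.901-fold in males and 0.963-fold in females) was not past the threshold in either sex. Loricrin (1.23 and 1.17) passed the adjusted p in males alone (0.0989), with overlap between the groups of both sexes. *Krt2* and *Flg* rose 20.2- and 14.5-fold in males. On this scale the male ratio of UVB to no UVB was 21 for *Klk13*, 3.46 for *Klk6*, 3.4 for *Klk9*, 2.24 for *Klk8*, 1.32 for *Klk7* and 1.3 for *Klk11*, and for these 6 the groups stayed apart, against 1.20% of all genes tested. For *Klk5* it was 1.01 and for *Klk14* 3.47, with overlapping groups for both. For *Klk10* (0.564) and *Spink5* (0.543) it was below 1, and every UVB male lay below every no-UVB male, as for 90.3% of genes. In females the groups stayed apart, with higher values after UVB, for *Klk13* (7.59), *Klk9* (2.7), *Klk8* (1.96), *Klk5* (1.48) and *Klk11* (1.44), and overlapped for the other 5 members, where 0.859% of genes stayed apart with higher values.

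Set against 5 basal markers (*Krt5*, *Krt14*, *Krt15*, *Col17a1* and *Itga6*), whose sum was 1.30-fold higher in UVB males and 0.844-fold in UVB females, 8 members were higher without overlap in males and 8 in females, against 4.76% and 9.41% of genes. These markers went opposite ways, with *Krt14* 2.70-fold and *Krt15* 0.421-fold in males and 1.38- and 0.462-fold in females. *Klk10* and *Spink5* overlapped in males, at 1.13 and 1.08. *Klk10* and *Klk14* overlapped in females, at 1.42 and 0.933.

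**Figure D5:**
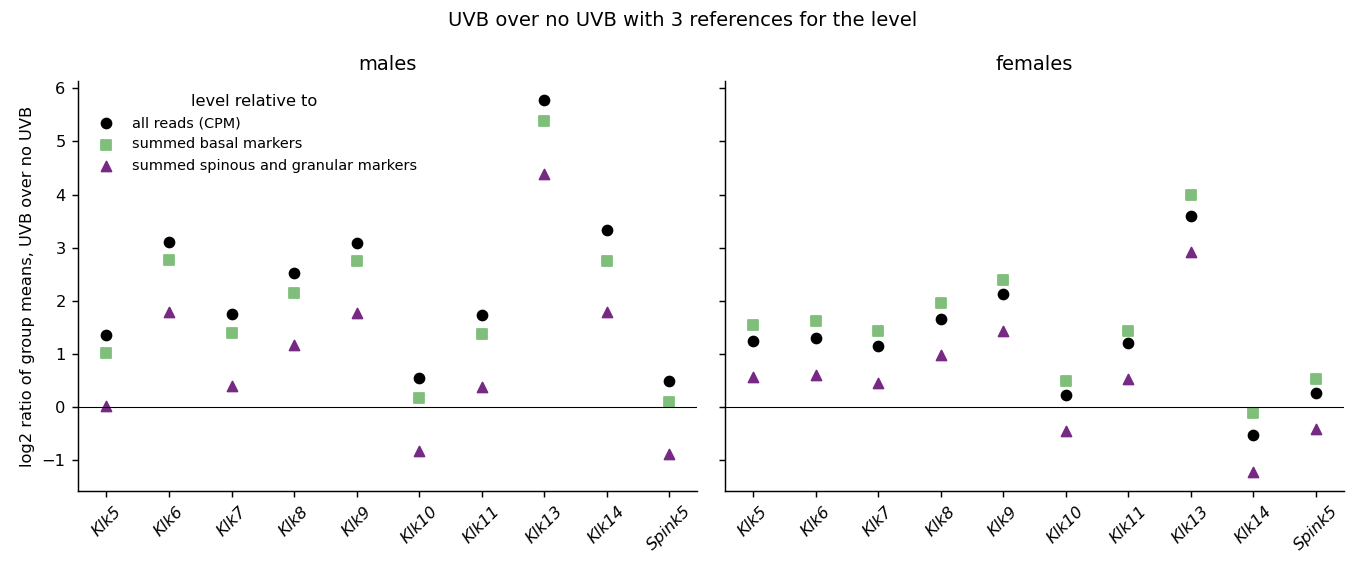
Log2 ratio of the group means, UVB over no UVB, for each member in males (left) and females (right), with the level taken relative to all reads (black circles), to the summed basal keratinocyte markers (green squares) or to the summed spinous and granular markers (purple triangles). Relative to the spinous and granular markers, *Klk10* and *Spink5* lie below 0 in both sexes and *Klk14* in females, with *Klk10* and *Spink5* at -0.83 and -0.88 in males, while *Klk13* stays at 4.39 and 2.93.

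The members were compared with 15107 genes of at least 1 CPM on average by the root mean square difference of their log2 CPM over the 16 mice, each gene centred on its own mean. Closest to *Klk7* were *Gsdma* (0.132), *Asprv1* (0.134) and *Blmh* (0.160), and closest to *Klk5* were *Them5* (0.132), *4930438A08Rik* (0.137) and *Krtdap* (0.154). *Klk11* was nearest to *Ephx3* (0.136), *Ceacam19* (0.146) and *Pnpla1* (0.168), *Klk8* to *Il36rn* (0.148), *Glrx* (0.187) and *Trex2* (0.194), and *Klk9* to *Il36g* (0.165), *Cnfn* (0.242) and *Calm4* (0.251). *Klk6* was nearest to *Slc26a9* (0.212), *Slpi* (0.302) and *Pinlyp* (0.346), *Klk10* to *Plet1* (0.196), *Prss22* (0.201) and *Cst6* (0.204), and *Spink5* to *Snw1* (0.120), *Perp* (0.124) and *Skint3* (0.126). The steep genes had looser neighbours, *Lce3f* (0.399), *Gpr15lg* (0.471) and *Lce3a* (0.539) for *Klk13*, and *Igfl3* (0.717), *Rptn* (0.740) and *Fetub* (0.807) for *Klk14*. Within the set the closest pairs were *Klk5* with *Klk7* (0.188), *Klk7* with *Klk11* (0.198) and *Klk5* with *Klk11* (0.246), followed by *Klk10* with *Spink5* (0.277), and the farthest was *Klk10* with *Klk13* (2.31). All these values share the same 16 libraries, and are descriptions with no test.

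The other genes of the system were taken from lists by role. Of 17 other kallikreins 2 could be tested in males, *Klk12*, described above, and *Klk1*, the tissue kallikrein, with 2.95 ± 1.76 CPM in no-UVB and 0.498 ± 0.316 CPM in UVB males (log2 fold change -2.55, SE 0.545, adjusted p = 0.00345), but passed the filter on low counts only with the no-UVB males. Of 11 other Kazal-type inhibitors, the family of LEKTI, 2 were tested in each sex. *Spink7* was at 44.4 ± 7.32 CPM in UVB males and 5.42 ± 5.2 CPM in UVB females, at least 306-fold and 43.5-fold above the level that 3 reads per library would give, where no no-UVB mouse had more than 2 reads. Without UVB female 2, the highest, the female value was at least 23.1-fold. Like *Spink12* in males, it passed the filter on low counts only through the UVB mice, so no test is counted for either. *Spink12* was at 0.678 to 8.23 CPM in the UVB males, on average at least 19.7-fold above that floor, with at most 3 reads per no-UVB male, and at least 7.33-fold without UVB male 2, and in females it was too low to test. *Spink2* had a log2 fold change of -0.61 in females and was not tested in males, and since it passed the filter in females only with the no-UVB mice, no test is counted for it either.

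Of 8 inhibitors of serine proteases outside the Kazal family 6 were tested, and all 6 rose by adjusted p in males and 5 in females, against 29.0% and 12.8% of all genes. Of the 5, 1 (*Wfdc12*, named after its values were seen) passed the filter in females only with the UVB mice. *Slpi*, the secretory leukocyte peptidase inhibitor, had log2 fold changes of 3.77 in males (adjusted p = 4.76e-05) and 1.61 in females (0.0034) and an interaction with sex of 2.15 (adjusted p = 0.0322). *Serpina12*, whose product vaspin inhibits KLK7, had 0.71 in males (adjusted p = 2.46e-04) and 0.70 in females (0.0191). *Wfdc5*, which encodes a protein with a WAP domain, had 1.26 in males (adjusted p = 2.18e-05) and 0.97 in females (4.94e-04). *Spint1* and *Spint2* encode inhibitors of the membrane protease matriptase. *Spint1* had 0.78 in males (adjusted p = 7.99e-05) and 0.44 in females (0.058), and the female call was lost without any of UVB females 1, 3 and 4 and no-UVB females 3 and 4 (0.34 to 0.44, adjusted p 0.110 to 0.147) and with the replicate block (0.105). *Spint2* had 0.14 in males (adjusted p = 0.0972) and 0.03 in females (0.917), and the male call was lost without UVB male 1, 2 or 3 or no-UVB male 2 or 4 (0.11 to 0.14, adjusted p 0.143 to 0.213), with upper quartile scaling (0.06, adjusted p = 0.440) and with all 16 mice in a single fit (0.12, adjusted p = 0.404).

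Of 5 proteases upstream of the kallikreins 2 were expressed enough for the test, and both rose in both sexes by adjusted p, short of the threshold on fold, against 29.0% and 12.8% of all genes. *St14*, which encodes matriptase, had 0.66 in males (adjusted p = 1.39e-05) and 0.37 in females (0.0967). *Prss8*, which encodes prostasin, had 0.73 in males (adjusted p = 0.00377) and 0.51 in females (0.0771). The female call of *St14* was lost without UVB female 1, 3 or 4 or no-UVB female 1, 3 or 4 (0.27 to 0.40, adjusted p 0.128 to 0.226), and with DESeq2 size factors (0.107), upper quartile scaling (0.126), every gene with a count (0.124) or the replicate block (0.178). That of *Prss8* was lost without UVB female 1, 3 or 4 or no-UVB female 3 or 4 (0.37 to 0.51, adjusted p 0.125 to 0.180) and with every gene with a count (0.215).

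The genes of the corneodesmosome proteins that kallikreins cleave rose in 4 of 4 cases by adjusted p in males and in 3 of 4 in females, against 29.0% and 12.8% of all genes. *Cdsn*, which encodes corneodesmosin, was at 497, 419, 646 and 583 CPM in no-UVB males and 1318, 1235, 1163 and 1068 CPM in UVB males, and had log2 fold changes of 1.18 in males (adjusted p = 2.73e-05) and 0.94 in females (0.00353). *Dsc1*, which encodes desmocollin 1, had 1.65 in males (adjusted p = 6.25e-06) and 1.06 in females (6.89e-04). Of the desmoglein genes, *Dsg1b* had 2.38 in males (adjusted p = 8.24e-06) and 1.31 in females (7.58e-04) and an interaction with sex of 1.06 (adjusted p = 0.0366, and 0.1001 when every gene with a count was tested). *Dsg1a* had 0.44 in males (adjusted p = 0.002) and 0.14 in females (0.523). *Dsg1a* and *Dsg1b* are close paralogs, and reads that match both equally would be left out of these counts.

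Of 6 other proteases of the cornified layer 5 rose in males and 4 in females by adjusted p, against 29.0% and 12.8% of all genes. *Asprv1*, which encodes a protease that processes filaggrin, had 1.88 in males (adjusted p = 1.05e-05) and 1.26 in females (0.00315). *Blmh*, which encodes bleomycin hydrolase, had 1.78 in males (adjusted p = 2.31e-06) and 1.37 in females (3.03e-04). Cathepsin D (*Ctsd*) had 0.66 in males (adjusted p = 1.82e-05) and 0.44 in females (0.00891), and cathepsin L (*Ctsl*) had 0.45 in males (adjusted p = 5.39e-04) and 0.22 in females (0.201). Of 4 genes of receptors and effectors linked to kallikreins 2 rose in males and 1 in females by adjusted p, against the same shares of all genes. *Il1b*, whose product can be activated by proteases, had 1.61 in males (adjusted p = 1.27e-04) and 1.03 in females (0.0142). *F2rl1*, the gene of the protease-activated receptor PAR2, had -0.09 in males (adjusted p = 0.391) and -0.04 in females (0.928), and the male value passed the threshold only without UVB male 3 (-0.18, adjusted p = 0.0670). *Tslp*, which encodes a cytokine released by keratinocytes, had 0.71 in males (adjusted p = 0.0312) and 0.41 in females (0.302), and its male call was lost without UVB male 3 (0.51, adjusted p = 0.101). *Camp*, the gene of cathelicidin, was low, had -0.52 in males (adjusted p = 0.566) and was not tested in females.

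Of 7 transcription factors of the differentiating epidermis 5 rose in males and 2 in females by adjusted p, against 29.0% and 12.8% of all genes. *Grhl1* had 0.60 in males (adjusted p = 7.39e-05) and 0.26 in females (0.217), and *Zfp750* had 0.67 in males (adjusted p = 1.66e-04) and 0.37 in females (0.234). Both female values passed the threshold without UVB female 2, with 0.35 (adjusted p = 0.0637) for *Grhl1* and 0.54 (adjusted p = 0.0279) for *Zfp750*. *Klf4* had -0.0044 in males (adjusted p = 0.987) and 0.13 in females (0.634), and *Gata3* had 0.0091 in males (adjusted p = 0.943) and -0.19 in females (0.505).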

How the data were processed

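RNA of whole dorsal skin was sequenced in 16 mice, 4 per group. The authors deposited 1 STAR gene table per mouse aligned to GRCm39, with 3 columns of raw counts per gene, not normalized; STAR versions and the annotation release are not given in the sources used here. The column matching the directional kit was used, the unstranded column as an alternative. Names and positions came from GENCODE M39, which matched all but 610 of 55359 identifiers. Genes passing filterByExpr were fitted with edgeR 4.0.16 (TMM, robust quasi-likelihood test, Benjamini-Hochberg adjustment) in R 4.3.3, within each sex for UVB responses (the study's thresholds of 0.1 and 1, there with DESeq2 and shrunken fold changes) and over all mice for the interaction and the sex differences. DESeq2 1.42.0 and apeglm 1.24.0 gave alternatives, and Python 3.11.15 the plots. The fits were tested on simulated data. Chi-square per degree of freedom between libraries of a group was 9.54 to 98.3. None was therefore a duplicate, and the spread between mice exceeded that of counting reads. The labels tie no sample to a litter or batch, so p-values measure the spread between these mice. Alternatives were other scaling, filters, strand, tests and thresholds, a replicate block within each sex, each mouse left out and, chosen after seeing the data, a replicate block shared by the sexes and keratinocyte markers as reference. The members and lists were chosen with earlier results of these data known. From each further list at most 4 genes are named, those with the highest mean CPM, plus those past the interaction's threshold; listed genes that were too low for the test are not named.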

Additional observations from a re-analysis of the deposited data

Results flagged for a closer look

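*Klk14* in UVB male 2 was at 7.91 CPM, where the other 3 UVB males were at 0.886 to 2.09 CPM, a gap of 0.8292 of the range of the group, just past Dixon's 95% critical value for 4 samples. The value rests on 124 reads. Chance marks about 1 in 20 groups in this way, and 40 combinations of member and group were examined. The response to UVB was larger in males than in females by 1.80 on the log2 scale for *Klk6*, by 0.52 for *Klk11* and by 3.82 for *Klk14*, by the interaction of UVB and sex with edgeR (adjusted p = 0.0343, 0.0740 and 0.0884). The test of *Klk14* is no support for the difference, since the gene entered the fit only through the UVB males. Without UVB male 2 the difference for *Klk14* was 2.89 (adjusted p = 0.121).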

How the results depend on the processing

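The numbers of members that rose by adjusted p and fold were 8 in males and 7 in females on leaving out each mouse and under every other setting of normalization, strand, test and fit, and 7 and 6 with a filter of 10 counts in each of the mice, which left *Klk14* untested in males and *Klk13* in females. The number of members with an interaction, 3 as reported, was 5 with counts without regard to strand, 7 with DESeq2's Wald test, 1 at an adjusted p under 0.05 and 1 to 6 on leaving out each mouse. The share of all genes called was computed only for the main fits. These counts, and those with a replicate block below, therefore have no such share beside them. Deviations of same-numbered mice from their group means correlated by -0.0732 to 0.0216 between UVB and no UVB in males and by -0.115 to 0.217 in females. Between the sexes they correlated by -0.0301 to 0.148 after UVB and -0.123 to 0.0691 without. UVB males 2, 3 and 4 (0.0862, 0.144 and 0.148) and no-UVB males 1 and 4 correlated best with the same-numbered female of their treatment. UVB females 1 and 3 (0.155 and 0.217) did so with the same-numbered no-UVB female. The other mice did not, nor did any UVB male with the no-UVB males. Whether the numbers stand for a shared day or batch cannot be decided from these values. With the replicate block within each sex the interaction was called for 4 members and the sex difference after UVB for 8 in place of 7, with *Klk5* added. Blocks within a sex take the spread between blocks out of the error of a sex difference, so the added call is no support for one. No UVB response of a member changed its call with that block. A block shared by the sexes, chosen after seeing the data, gave 4 and 7. Relative to summed spinous and granular keratinocyte markers, 6 members in place of 10 were higher without overlap in males, where *Klk10* and *Spink5* were lower without overlap, and 5 in place of 7 in females, and the log2 ratio was -0.83 for *Klk10* and -0.88 for *Spink5* in males and -0.44 and -0.41 in females. Values near 0 changed sign: *Klf4* in males with DESeq2 size factors (0.0055), DESeq2's Wald test (0.0058), apeglm (0.0049) and every gene with a count (0.016), *Gata3* in males with upper quartile scaling (-0.069) and a single fit (-0.012), and *Spint2* in females with upper quartile scaling (-0.012). On leaving out each mouse the ranges that crossed 0 were -0.88 to 0.46 for *Camp*, -0.14 to 0.12 for *Klf4* and -0.053 to 0.088 for *Gata3* in males, -0.025 to 0.72 for *Klk12*, -0.074 to 0.12 for *Spint2*, -0.16 to 0.14 for *F2rl1* and -0.035 to 0.24 for *Klf4* in females, and -0.015 to 0.23 for *Klk5* and -0.035 to 0.56 for *Klk10* in the interaction. The causes were not tested. Upper quartile scaling moved the median of all genes in males to -0.10, from -0.02. Depth limits *Klk14*, *Spink12* and *Klk1*, whose counts were near the filter.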
